A study of Mus musculus with 30 samples.

Results

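Ifi27 (ENSMUSG00000064215.13) is a mouse gene of the interferon-inducible ISG12 family, and its level in whole B16 melanomas is described here together with that of its 2 paralogs, Ifi27l2a (ENSMUSG00000079017.3) and Ifi27l2b (ENSMUSG00000021208.9). The 3 genes were found by symbol among the 39676 gene identifiers of the count table, and each had 1 row. Ifi27 was chosen on its own earlier fold changes against B16-GFP tumors in these data, which had not passed the threshold. Its levels and fold changes are therefore given as a description, with no test. The paralogs were taken by family and not by their values, though with earlier results of these data known, and they were tested.

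ISG12 proteins are small hydrophobic proteins of intracellular membranes, described mainly at mitochondria and the nuclear envelope. Human IFI27 is among the genes most often used to read a type I interferon response in blood and tissue. Type I interferons act through the receptor IFNAR1/IFNAR2 and a transcription factor complex that switches on interferon-stimulated genes (ISGs).

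The mouse names in this family overlap between genes. RefSeq (GRCm38.p6) lists Ifi27 and Isg12 as synonyms of Ifi27l2a, and lists Ifi27l1 and ISG12a as synonyms of the gene with the symbol Ifi27. A signature that names Ifi27 can therefore mean either locus. All 3 genes lie close together on chromosome 12. In GENCODE M21, an annotation of GRCm38, Ifi27 covers chr12:103434211-103440239 on the plus strand and has 9 transcripts, of which 6 are protein coding. Ifi27l2a covers chr12:103442167-103443680 on the minus strand and begins after a gap of 1927 bases. Ifi27l2b covers chr12:103450898-103457223, also on the minus strand, after a further gap of 7217 bases. No annotated gene overlapped any of them in GENCODE M21, but the RefSeq extent of Ifi27l2a, 9808 bases, reaches across Ifi27 on the other strand.

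The best-aligned 60 bases of the coding sequences are printed because they show how close the 3 genes are and how far reads of 50 bases could still tell them apart. Capitals mark the 46 bases that are identical in all 3 genes, and the sequences were read 5′ to 3′ along the coding strand of the GENCODE M21 transcripts.
Ifi27: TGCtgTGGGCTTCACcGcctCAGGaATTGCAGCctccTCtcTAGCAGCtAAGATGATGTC
Ifi27l2a: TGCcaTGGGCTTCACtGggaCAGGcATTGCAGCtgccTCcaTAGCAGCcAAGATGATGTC
Ifi27l2b: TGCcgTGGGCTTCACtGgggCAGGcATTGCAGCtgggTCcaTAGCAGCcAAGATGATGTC
Counted from the first coding base, the stretch ran from base 438 to 497 in Ifi27, from 72 to 131 in Ifi27l2a and from 447 to 506 in Ifi27l2b. Here Ifi27 shared 48 bases with Ifi27l2a and 47 with Ifi27l2b, while the 2 paralogs shared 56. Over the whole alignable part of the coding sequence, Ifi27 was identical to Ifi27l2a at 176 of 250 bases (70.4%) and to Ifi27l2b at 168 of 240 (70.0%). Ifi27l2a and Ifi27l2b were identical at 228 of 260 bases (87.7%). Ifi27 could be cut into 1651 different windows of 50 bases, and no other gene's transcripts held any of them. Ifi27l2a shared 2 of its 414 windows (0.483%), all with Ifi27l2b, so full-length reads without mismatches could be split almost only between those 2 genes.

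The tumors grew from B16-F10 melanoma cells, an established mouse line, injected subcutaneously into female C57BL/6 mice, typically 8 to 12 weeks old. Cells were transduced with a retroviral vector for IFNα4 and GFP (B16-IFNA4), for IFNα9 and GFP (B16-IFNA9), or for GFP alone (B16-GFP), and all 3 lines also carried herpes simplex virus glycoprotein B and luciferase. Each line was sorted for transduced cells by fluorescence, and the interferon was made from the vector. Whole tumors were taken on day 8, with 10 tumors of each type labelled as biological replicates and no batch named. Total counts ran from 14598517 to 19788383 per tumor. Reads of Ifna4 were found in all 10 B16-IFNA4 tumors, with 81 to 188 counts, and in no other tumor. Reads of Ifna9 were found in all 10 B16-IFNA9 tumors, with 55 to 148 counts, and in no other tumor, so the transgenes went with the labels. All lists of cell type markers were detected in every tumor type, and no marker in the counts was at 0 in any type. Of 7 melanocyte lineage markers, 3 had a row in the counts.

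The levels of Ifi27 overlapped between the 3 tumor types. Levels are CPM, counts scaled to a common library size, with libraries weighted by TMM. In B16-GFP tumors 1 to 10, Ifi27 was at 100.04, 110, 122, 116, 139, 141, 95.2, 156, 144 and 81.9 CPM. In B16-IFNA4 tumors 1 to 10 it was at 75.7, 106, 88.9, 127, 96.9, 116, 119, 120, 106 and 95.9 CPM. In B16-IFNA9 tumors 1 to 10 it was at 137, 128, 107, 97.8, 185, 111, 135, 112, 120 and 175 CPM. The ranges overlapped widely, with 1 B16-IFNA4 tumor below all B16-GFP tumors and 2 B16-IFNA9 tumors above all of them.

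The mean level of Ifi27 was 121 ± 24.1 CPM in B16-GFP, 105 ± 15.9 CPM in B16-IFNA4 and 131 ± 28.9 CPM in B16-IFNA9 tumors (SD, n = 10 each). Between 1067 and 3452 counts stood behind each value, so counting error was small beside the spread between tumors. On the log2 scale Ifi27 differed from B16-GFP by -0.20 (SE 0.12) in B16-IFNA4 and by 0.12 (SE 0.12) in B16-IFNA9 tumors. Between the interferon-secreting types it was 0.31 (SE 0.12), with B16-IFNA9 higher, and 5 B16-IFNA9 tumors lay above all B16-IFNA4 tumors. In the order of the means, B16-IFNA4, B16-GFP and B16-IFNA9, neighbours differed by less than 1 SD. In whole tumors, fewer cells of a type and less RNA per cell cannot be told apart, so a level of Ifi27 that stays alike can cover opposite changes in different cells.

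**Figure D1:**
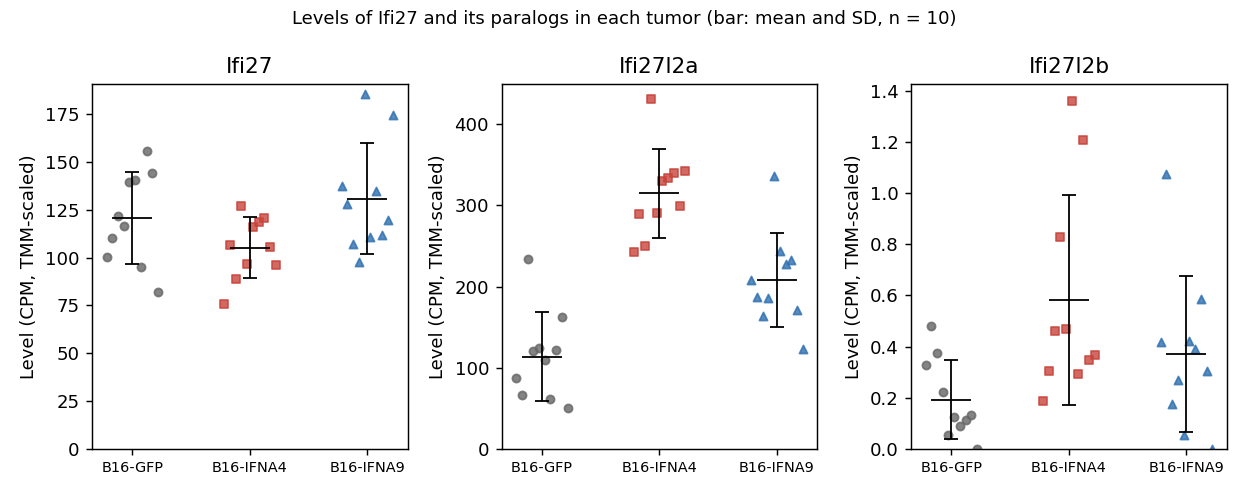
Level of Ifi27, Ifi27l2a and Ifi27l2b in CPM (vertical axis, a separate scale for each gene) in each of 10 tumors per type, with the mean and SD as bars. Ifi27 overlaps between all types, while all B16-IFNA4 tumors are at 242 CPM or higher for Ifi27l2a and the highest B16-GFP tumor is at 234 CPM.

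Ifi27l2a, the paralog that has Ifi27 as a synonym, was higher in both interferon-secreting types. In B16-GFP tumors 1 to 10 its level was 86.9, 66.4, 234, 121, 124, 110, 61.4, 121, 162 and 50.0 CPM. In B16-IFNA4 tumors 1 to 10 it was 242, 289, 250, 431, 290, 329, 334, 340, 299 and 342 CPM. In B16-IFNA9 tumors 1 to 10 it was 208, 187, 163, 186, 336, 243, 228, 233, 171 and 123 CPM. All 10 B16-IFNA4 tumors lay above all B16-GFP tumors, though the gap to B16-GFP tumor 3 was narrow, while 2 B16-IFNA9 tumors lay above all B16-GFP tumors.

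Mean levels of Ifi27l2a were 114 ± 54.6 CPM in B16-GFP, 315 ± 54.3 CPM in B16-IFNA4 and 208 ± 58.0 CPM in B16-IFNA9 tumors (SD, n = 10 each). Ifi27l2a was 2.77-fold higher in B16-IFNA4 than in B16-GFP tumors (log2 fold change 1.47, SE 0.20, adjusted p = 3.80e-07, edgeR quasi-likelihood test with Benjamini-Hochberg adjustment over 15926 genes). In that comparison 31.3% of all genes tested were called higher, and 8.5% were higher without overlap between the types. In B16-IFNA9 tumors Ifi27l2a was 1.83-fold higher than in B16-GFP (log2 fold change 0.87, SE 0.20, adjusted p = 5.94e-04 by the same edgeR test). There, 26.9% of all genes tested were called higher. The call held when any 1 tumor was left out, with log2 fold changes of 1.38 to 1.65 in B16-IFNA4 and 0.78 to 1.05 in B16-IFNA9.

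Between the interferon-secreting types, Ifi27l2a was 1.51-fold lower in B16-IFNA9 than in B16-IFNA4 tumors (log2 fold change -0.60, SE 0.20, edgeR adjusted p = 0.0364). In this comparison 7.25% of all genes tested were called lower. A total of 8 B16-IFNA9 tumors lay below all B16-IFNA4 tumors. This call was lost without any 1 of 11 tumors, B16-IFNA4 tumor 4, 6, 7, 8 or 10 or B16-IFNA9 tumor 1, 2, 3, 4, 9 or 10, when the log2 fold change ran from -0.59 to -0.53 and the adjusted p from 0.0507 to 0.0768.

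Leukocyte markers rose with Ifi27l2a across the types, while those of other cell types went the same way, the opposite way or neither. All 6 (Ptprc, Cd52, Coro1a, Laptm5, Cd53 and Lcp1) were called higher in both interferon-secreting types, and their summed level ran from 287 to 857 CPM in B16-GFP, from 1245 to 2675 CPM in B16-IFNA4 and from 887 to 1803 CPM in B16-IFNA9 tumors. The 7 markers of NK and T cells were also called higher in both, with summed levels of 5.17 to 37.8, 117 to 304 and 85.6 to 219 CPM in the same order. All 3 melanoma cell markers with a row were called lower in both, with summed levels of 7214 to 22818 CPM in B16-GFP, 2157 to 3630 CPM in B16-IFNA4 and 3367 to 8916 CPM in B16-IFNA9 tumors. Of 6 tested endothelial markers, 5 were called lower in each type and 1 higher in B16-IFNA4, with summed levels of 190 to 444 CPM in B16-GFP, 218 to 338 CPM in B16-IFNA4 and 104 to 218 CPM in B16-IFNA9 tumors. Of 6 keratinocyte markers, 5 were called higher in B16-IFNA4 and 2 in B16-IFNA9, with summed levels of 1010 to 7469, 6938 to 10254 and 2197 to 8651 CPM in the same order. Of 5 skeletal muscle markers, 3 were called lower in B16-IFNA9, and their median log2 fold change was 0.04 in B16-IFNA4. Of 6 macrophage markers, 1 was called higher and 2 lower in B16-IFNA4, and 1 was called higher in B16-IFNA9. Of 4 fibroblast markers 1 was called higher in each type, and 5 adipocyte markers had median log2 fold changes of 0.51 and 0.48. Over all genes tested, 31.3% were called higher and 34.1% lower in B16-IFNA4 against B16-GFP, and 26.9% higher and 28.9% lower in B16-IFNA9, so 2 of 6 keratinocyte and 1 of 4 fibroblast markers are near the background. Library totals in place of TMM moved the B16-IFNA9 comparison from 4281 genes higher and 4595 lower to 5051 and 3610. The part of the changed cell makeup in the levels of Ifi27 and Ifi27l2a was not tested.

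Ifi27l2b was barely detected in these tumors. Its counts were 6, 9, 6, 4, 1, 2, 1, 2, 2 and 0 in B16-GFP tumors 1 to 10. They were 3, 6, 9, 14, 8, 24, 5, 21, 6 and 6 in B16-IFNA4 tumors and 7, 18, 3, 5, 1, 8, 7, 9, 5 and 0 in B16-IFNA9 tumors. Summed over 10 tumors, the gene had 33, 102 and 63 counts in B16-GFP, B16-IFNA4 and B16-IFNA9, and the counts of the types overlapped.

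The mean level of Ifi27l2b was 0.192 ± 0.155 CPM in B16-GFP, 0.582 ± 0.409 CPM in B16-IFNA4 and 0.369 ± 0.305 CPM in B16-IFNA9 tumors (SD, n = 10 each). With a mean of 6.60 counts it stayed under the filter of 10, so these levels have no test in the fit of all genes above the filter. When the filter was lifted, the log2 fold change against B16-GFP was 1.55 (SE 0.50, edgeR adjusted p = 0.0122) in B16-IFNA4 and 0.89 (SE 0.51, edgeR adjusted p = 0.192) in B16-IFNA9. Given the stretch it shares with the more abundant Ifi27l2a, these few counts are uncertain.

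The ratio of the counts of Ifi27l2a and Ifi27 was taken within each library, where depth and scaling drop out. It was 0.927 ± 0.391 in B16-GFP, 3.00 ± 0.290 in B16-IFNA4 and 1.63 ± 0.421 in B16-IFNA9 tumors (SD, n = 10 each). The lowest B16-IFNA4 tumor, at 2.72, was above the highest B16-IFNA9 tumor, at 2.20, and the highest B16-GFP tumor, at 1.92. B16-GFP and B16-IFNA9 tumors overlapped, from 0.603 to 1.92 and from 0.702 to 2.20, through 1 tumor of each type. Without B16-GFP tumor 3 the highest B16-GFP ratio was 1.13, and without B16-IFNA9 tumor 10 the lowest B16-IFNA9 ratio was 1.43. Because Ifi27 had been chosen for its flat level, the ratio is a description and was not tested.

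**Figure D2:**
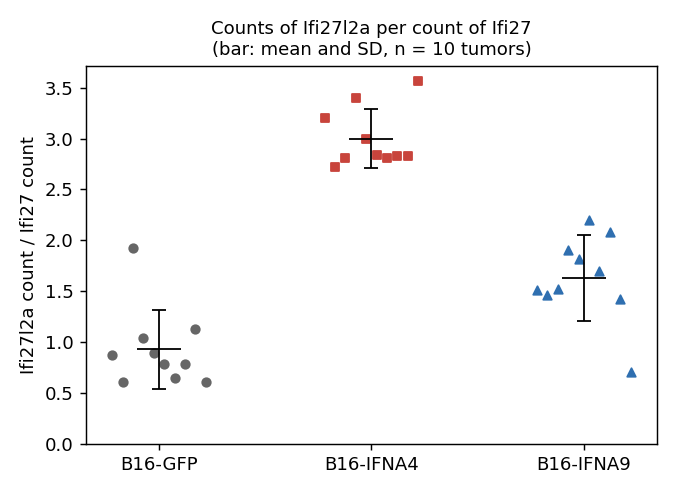
Counts of Ifi27l2a divided by counts of Ifi27 (vertical axis, no unit) in each tumor, with the mean and SD of 10 tumors per type as bars. All B16-IFNA4 tumors lie between 2.72 and 3.57, above every tumor of the other types.

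Other ISGs were used to place the family. Of 65 listed ISGs besides the members, 60 passed the filter, and all 60 were called higher in B16-IFNA4 as well as in B16-IFNA9 tumors against B16-GFP. In the earlier results of these data, Ifi27 had been picked as the only listed ISG not called against B16-GFP. That no exception was left among the rest thus followed from the choice. The background was 31.3% and 26.9% of all genes. Both comparisons share the B16-GFP tumors. The median log2 fold change of the 60 was 2.64 in B16-IFNA4 and 2.42 in B16-IFNA9 tumors, against 0.01 and 0.00 over all genes tested. In B16-IFNA4, 60 were above B16-GFP without overlap, beside 8.5% of all genes tested, and in B16-IFNA9 57 were, beside 4.44%. By role, all 12 sensors of RNA and DNA, all 8 tested signalling genes and all 40 tested antiviral effectors were called higher in both types.

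The largest log2 fold changes in B16-IFNA4 tumors were those of Ifit1bl1 at 6.09 (SE 0.26), Ifit3b at 4.36 (SE 0.19) and Ifi44 at 4.33 (SE 0.25), all antiviral effectors. The smallest were those of Ifitm3, a membrane protein that blocks virus entry, at 1.38 (SE 0.15), Lgals9, a galectin, at 1.50 (SE 0.11), and Adar, an RNA-editing enzyme, at 1.53 (SE 0.11). In B16-IFNA9 tumors Ifit1bl1 at 4.46 (SE 0.25), Ifi44 at 3.79 (SE 0.25) and Igtp, an immunity-related GTPase, at 3.60 (SE 0.29) were highest. Trim25, a ubiquitin ligase of the RIG-I pathway, at 0.96 (SE 0.13), Ifitm3 at 1.09 (SE 0.15) and Tlr7, an endosomal RNA sensor, at 1.16 (SE 0.21) were lowest.

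Ifi27 thus lay below all 60 ISGs in both comparisons, as the choice of the gene had it. Ifi27l2a lay above 1 of the 60, Ifitm3, in B16-IFNA4 tumors, and below all 60 in B16-IFNA9 tumors, so its rise was at the low end of the listed ISGs. Between the interferon-secreting types the order was another one. There, 23 of the 60 ISGs were called lower in B16-IFNA9 and 2 higher, with 7.25% of all genes called lower and 10.5% called higher. The median was -0.36, and 54 of the 60 had a log2 fold change below the 0.31 of Ifi27, while 15 had one below the -0.60 of Ifi27l2a.

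**Figure D3:**
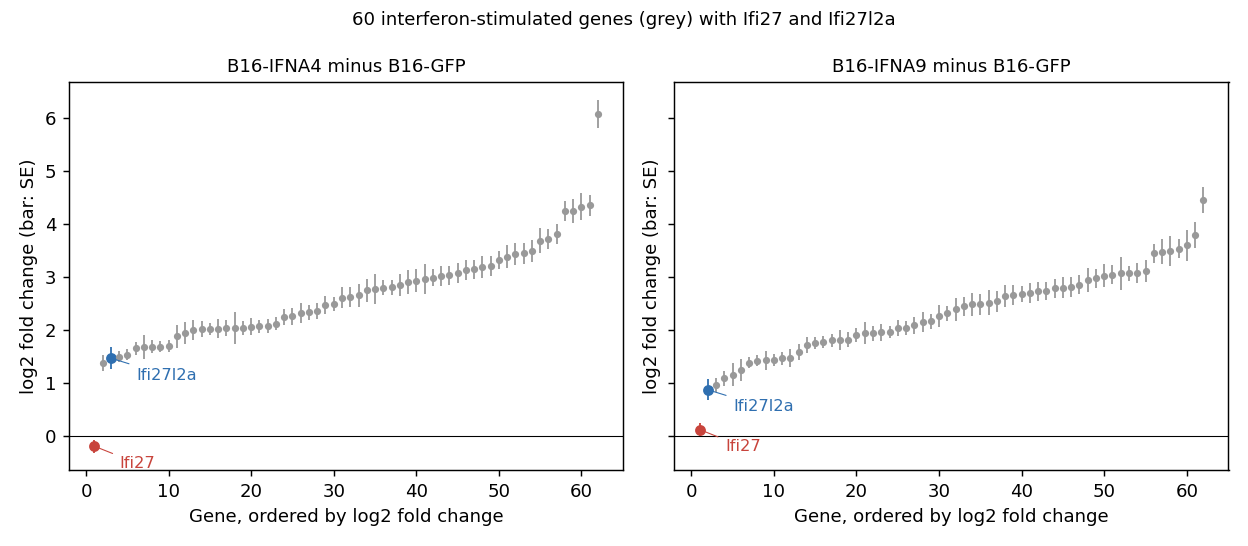
Log2 fold change against B16-GFP (vertical axis, bars give the SE) of 60 ISGs in grey with Ifi27 in red and Ifi27l2a in blue, ordered by size along the horizontal axis. Ifi27 is at -0.20 and 0.12, and the lowest ISG is at 1.38 in B16-IFNA4 and 0.96 in B16-IFNA9.

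Ifi27 differed from most ISGs in its level without a transgenic interferon. Levels of different genes were compared as CPM per kb of the longest coding transcript. In B16-GFP tumors Ifi27 was at 123 CPM per kb, above 57 of the 60 ISGs and above 95.2% of all genes tested. In B16-IFNA4 tumors it was at 108 CPM per kb with 29 ISGs above it, and in B16-IFNA9 tumors at 134 CPM per kb with 17 ISGs above it. Ifi27 kept its place among all genes, at 95.4% and 96.4% in the interferon-secreting types, while ISGs rose past it. With Ifi27 chosen for its flat level and ISGs that rise, this was set by the choice and has no test.

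Ifi27l2a was the more abundant family member per kb in all types, at 246 CPM per kb in B16-GFP, 680 in B16-IFNA4 and 449 in B16-IFNA9 tumors. In B16-GFP tumors 1 of the 60 ISGs was above it, Ifitm3 at 471 CPM per kb. In each interferon-secreting type 4 were above it. Ifi27l2a therefore had a high level in B16-GFP tumors and a small fold change, side by side.

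Among the ISGs, those nearest to Ifi27 in mean level over the 3 types were Irf7, Zbp1 and Samhd1 above it and Ifit1, Phf11b and Usp18 below it. Irf7, a transcription factor of the interferon pathway, went from 28.1 CPM per kb in B16-GFP to 306 in B16-IFNA4 and 158 in B16-IFNA9 tumors. Ifit1, an RNA-binding antiviral protein, was at 15.2, 214 and 126 CPM per kb, and Usp18, which restrains the interferon receptor, at 14.2, 188 and 113. Zbp1, a sensor of Z-form nucleic acids, was at 25.5, 232 and 222 CPM per kb. Phf11b was at 18.6, 211 and 109 and the nucleotide-cleaving Samhd1 at 46.7, 189 and 154 CPM per kb. The 6 were matched to Ifi27 on their mean over the types, so with ISGs that rise and a gene chosen as flat the following order has no test and was set by the matching. All 6 were under the 123 CPM per kb of Ifi27 in B16-GFP tumors and above its 108 CPM per kb in B16-IFNA4 tumors, while in B16-IFNA9 tumors 3 of them, Irf7, Zbp1 and Samhd1, were above its 134 CPM per kb. Taking the union of exons of Ifi27, 1467 bases in place of 977, lowered its mean over the types from 122 to 81.0 CPM per kb.

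**Figure D4:**
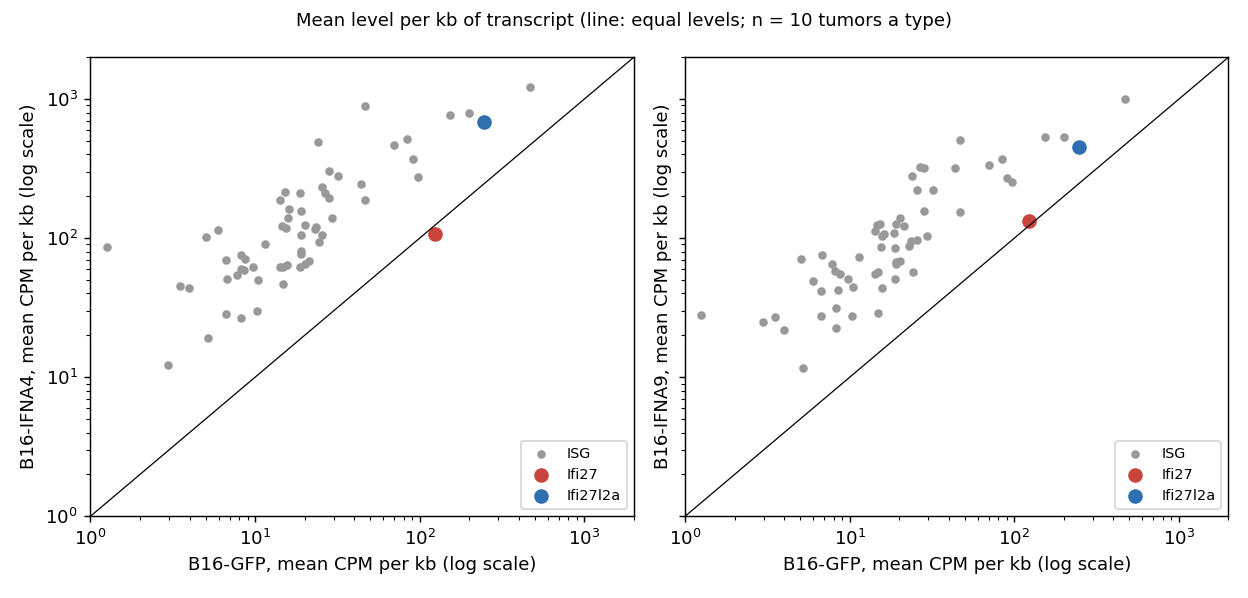
Mean level per kb in B16-GFP (horizontal axis, log scale) against that in B16-IFNA4 or B16-IFNA9 (vertical axis, log scale) for 60 ISGs in grey, Ifi27 in red and Ifi27l2a in blue, with a line of equal levels. Ifi27 lies next to the line at 123 against 108 and 134 CPM per kb, and all 60 ISGs lie above the line.

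The spread of Ifi27 between tumors of a type was small in B16-GFP tumors. The SD of its log2 CPM was 0.30 there, and 56 of the 60 ISGs had a larger one, with a median of 0.59. In B16-IFNA4 tumors the SD of Ifi27 was 0.23 and that of 37 ISGs was larger, and in B16-IFNA9 tumors it was 0.30 and that of 25 ISGs was larger. Ifi27l2a had an SD of 0.68, 0.24 and 0.39 in B16-GFP, B16-IFNA4 and B16-IFNA9 tumors.

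Variation of Ifi27 inside a type had not been used to choose it, so its relation to other measures was tested there over the 10 tumors of each type, in 15 relations. They used two-sided permutation tests with 100000 resamples, adjusted over the 15. In B16-IFNA4 tumors Ifi27 rose with Ifi27l2a (Pearson's r = 0.84, permutation p = 0.00262, adjusted p = 0.0196; Spearman's rho = 0.71, permutation p = 0.0267, adjusted p = 0.0667). In B16-GFP tumors r was 0.73 (permutation p = 0.0181, adjusted p = 0.0544) and rho 0.77 (permutation p = 0.0130, adjusted p = 0.0486). In B16-IFNA9 tumors r was 0.13 (permutation p = 0.718, adjusted p = 0.769) and rho 0.19 (permutation p = 0.607, adjusted p = 0.651).

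Ifi27 fell with rising leukocyte markers in both interferon-secreting types. In B16-IFNA4 tumors r was -0.77 (permutation p = 0.00868, adjusted p = 0.0325) and rho -0.77 (permutation p = 0.0116, adjusted p = 0.0486). In B16-IFNA9 tumors r was -0.86 (permutation p = 0.00119, adjusted p = 0.0178) and rho -0.81 (permutation p = 0.00701, adjusted p = 0.0486). In B16-GFP tumors r was 0.61 (permutation p = 0.0547, adjusted p = 0.0746) and rho 0.68 (permutation p = 0.0342, adjusted p = 0.0733), with the other sign. The difference between types was not tested.

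With the melanoma cell markers, Ifi27 rose in B16-IFNA9 tumors, where r was 0.76 (permutation p = 0.00814, adjusted p = 0.0325) and rho 0.79 (permutation p = 0.00901, adjusted p = 0.0486). In B16-GFP tumors r was -0.67 (permutation adjusted p = 0.0607) and rho -0.64 (permutation adjusted p = 0.0828), and in B16-IFNA4 tumors r was -0.03 (permutation adjusted p = 0.932) and rho -0.04 (permutation adjusted p = 0.919). For the mean log2 CPM of the ISGs, r was 0.62 in B16-GFP, -0.68 in B16-IFNA4 and -0.58 in B16-IFNA9 tumors, and rho was 0.64, -0.67 and -0.42 (permutation adjusted p from 0.0607 to 0.291). For the fibroblast markers, r was 0.65, 0.27 and -0.67, and rho 0.73, 0.19 and -0.59 (permutation adjusted p from 0.0607 to 0.651).

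Each relation was also computed over 8 tumors. Without the 2 tumors farthest from the median of the x measure, r was 0.70 for Ifi27l2a in B16-IFNA4, -0.63 and -0.60 for the leukocyte markers in B16-IFNA4 and B16-IFNA9, and 0.75 for the melanoma cell markers in B16-IFNA9 tumors (permutation adjusted p = 0.140, 0.142, 0.168 and 0.140, n = 8). With the melanoma cell markers r moved from 0.76 to 0.75. No relation of the 15 was then called, with fewer tumors in each test. Of the other relations, the r of 3 moved most. It went from -0.67 to -0.33 with the melanoma cell markers in B16-GFP, from -0.58 to -0.23 with the ISGs in B16-IFNA9 and from 0.27 to 0.69 with the fibroblast markers in B16-IFNA4 tumors.

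**Figure D5:**
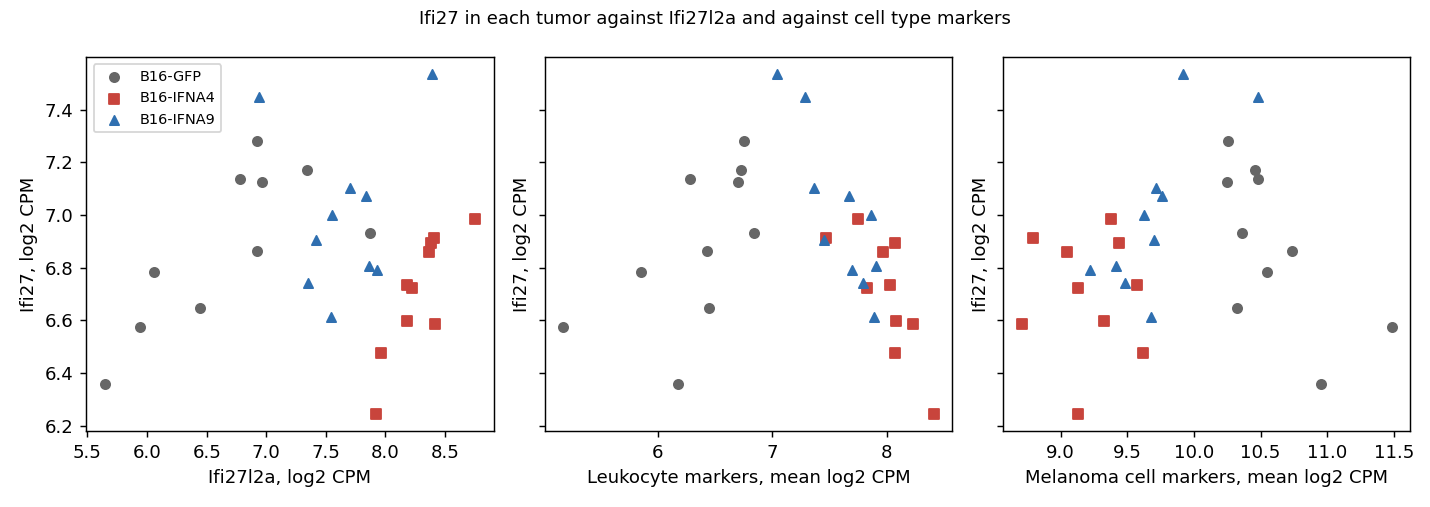
Log2 CPM of Ifi27 (vertical axis) in each of 30 tumors against log2 CPM of Ifi27l2a and the mean log2 CPM of the leukocyte and melanoma cell markers (horizontal axes), with circles for B16-GFP, squares for B16-IFNA4 and triangles for B16-IFNA9. Within B16-IFNA4 and B16-IFNA9 tumors Ifi27 falls as leukocyte markers rise, at r of -0.77 and -0.86.

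The genes most like Ifi27 were sought over the 30 tumors after the mean log2 CPM of each type had been subtracted, and they are described by Pearson's r with no test. The highest were Rasd2, a Ras-related small GTPase (0.83), Speg, a kinase of striated muscle (0.80), Klhl30 (0.79), Tmod1, which caps actin filaments (0.77), Mgarp, a mitochondrial protein (0.76), and Sema3b, a secreted semaphorin (0.76). None of these 6 was on an ISG list. The paralog Ifi27l2a had an r of 0.53 on this measure, and 482 of 15903 genes had a higher one. Rasd2 was lower in both interferon-secreting types (log2 fold changes -1.30 and -1.34, edgeR adjusted p = 5.27e-06 and 6.49e-06) and Mgarp was higher in both (0.78 and 1.84, edgeR adjusted p = 8.64e-05 and 9.12e-11). Both followed Ifi27 within types and yet changed in opposite directions between types.

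The lowest r were those of Rasa1, which switches off Ras (-0.82), Nsmaf, an adaptor of the TNF receptor (-0.80), and Ptbp3, a splicing regulator (-0.80). Gene length and base composition moved with r. The 100 genes with the highest r had a median transcript of 2536 bases and 56.2% GC, and the 100 with the lowest r one of 4438 bases and 41.2% GC, against 2926 bases and 49.4% GC over all genes tested. Ifi27 has 977 bases and 52.4% GC. The part of length and GC content in these correlations was not tested, and the 30 values share library preparation and depth.

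The chromosome around Ifi27 was read for other genes that changed. Within 250 kb on either side, 13 genes besides the paralogs had a row, and 3 passed the filter. Ppp4r4, a regulatory subunit of a protein phosphatase, was higher in both interferon-secreting types, at 0.925 ± 0.654 CPM in B16-GFP, 2.26 ± 0.524 in B16-IFNA4 and 1.65 ± 0.477 in B16-IFNA9 tumors (SD, n = 10 each). Its log2 fold change was 1.26 (SE 0.30, edgeR adjusted p = 4.94e-04) and 0.80 (SE 0.30, edgeR adjusted p = 0.0229). Asb2, a subunit of a ubiquitin ligase, was lower in B16-IFNA9 than in B16-GFP tumors (log2 fold change -1.06, SE 0.30, edgeR adjusted p = 0.00343), and in B16-IFNA4 its value was -0.24 (SE 0.29, edgeR adjusted p = 0.484). In B16-IFNA9 tumors its median was 7.23 CPM and tumor 5 was at 32.2 CPM. Without that tumor the log2 fold change against B16-GFP was -1.51 (SE 0.23, edgeR adjusted p = 2.76e-06).

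Otub2, a deubiquitinase and the nearest tested gene on the other side of Ifi27 from its paralogs, was lower in B16-IFNA9 tumors (log2 fold change -0.37, SE 0.12, edgeR adjusted p = 0.00768), with -0.24 (SE 0.12, edgeR adjusted p = 0.0746) in B16-IFNA4. Between B16-IFNA9 and B16-IFNA4, their log2 fold changes were -0.46 (Ppp4r4), -0.83 (Asb2) and -0.14 (Otub2), with edgeR adjusted p of 0.292, 0.0516 and 0.457. For Asb2 this became -1.26 (SE 0.23, edgeR adjusted p = 2.23e-04) without B16-IFNA9 tumor 5, and it also passed the threshold without B16-GFP tumor 7 or 10 or B16-IFNA4 tumor 1 or 3 (-0.89 to -0.83, edgeR adjusted p from 0.0344 to 0.0497). Otub2 in B16-IFNA4 against B16-GFP passed it at -0.27 without B16-GFP tumor 5 or B16-IFNA4 tumor 8 (edgeR adjusted p = 0.0448 and 0.0449). Against B16-GFP, 31.3% of all genes tested were called higher and 34.1% lower in B16-IFNA4, and 26.9% and 28.9% in B16-IFNA9, so calls among 3 neighbours are not a result about the locus. The other 10, Prima1, Fam181a, Serpina10, Serpina6, Serpina16, Serpina1f, Gm29508, Gm15523, Gm45777 and Gm18501, had means of 0.00 to 4.90 counts.

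A last list held 10 genes of proteins that human IFI27 is known to bind or act with, namely NR4A receptors, exportin 1, SKP2 and the mitochondrial apoptosis machinery. Of these, 9 passed the filter, and the tenth, Nr4a1, was not analysed here. In B16-IFNA4 against B16-GFP tumors 1 was called higher and 4 lower, beside 31.3% and 34.1% of all genes tested. In B16-IFNA9 tumors 2 were called higher and 3 lower, beside 26.9% and 28.9%. Median log2 fold changes were -0.24 and -0.05.

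Skp2, a ubiquitin ligase subunit that drives the cell cycle, was at 40.2 ± 11.4 CPM in B16-GFP, 17.9 ± 1.79 in B16-IFNA4 and 25.8 ± 5.03 in B16-IFNA9 tumors (SD, n = 10 each). Its log2 fold change was -1.17 (SE 0.13, edgeR adjusted p = 3.86e-09) in B16-IFNA4 and -0.64 (SE 0.12, edgeR adjusted p = 9.05e-05) in B16-IFNA9. Between the interferon-secreting types, where 10.5% of all genes tested were called higher and 7.25% lower, 1 of the 9 was called, a share near that background. This was Skp2, higher in B16-IFNA9 by 0.53 (SE 0.13, edgeR adjusted p = 0.00347). The melanoma cell markers had the same order of types, and a relation of Skp2 to them was not tested.

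Nr4a3, an orphan nuclear receptor, was lower in both types (-0.80 and -0.64, edgeR adjusted p = 4.60e-06 and 1.56e-04). Bax, which opens the outer mitochondrial membrane, was lower in both as well (-0.65 and -0.48, edgeR adjusted p = 0.00207 and 0.0236). Bak1, its relative, was lower in B16-IFNA4 (-0.50, edgeR adjusted p = 0.00355), with -0.23 in B16-IFNA9 (edgeR adjusted p = 0.177). Casp9, the initiator caspase of that pathway, was higher in both (0.24 and 0.21, edgeR adjusted p = 6.24e-04 and 0.00290). Apaf1, its activator, was higher in B16-IFNA9 (0.25, edgeR adjusted p = 0.0202), with 0.18 in B16-IFNA4 (edgeR adjusted p = 0.0786). Xpo1, which exports proteins from the nucleus, and Nr4a2, another nuclear receptor, were not called in any of the 3 comparisons. Several of these calls turned on 1 tumor. Bax in B16-IFNA9 was -0.34 without B16-GFP tumor 7 (edgeR adjusted p = 0.0767), and Apaf1 in B16-IFNA9 was 0.20 without B16-IFNA9 tumor 10 (edgeR adjusted p = 0.0505). In B16-IFNA4 against B16-GFP, Apaf1 passed the threshold without B16-GFP tumor 7 or 10 or B16-IFNA4 tumor 8 (0.22 to 0.23), and Nr4a2 without B16-GFP tumor 1 (0.45, edgeR adjusted p = 0.0312). Xpo1 passed it there at -0.28 to -0.24 without B16-GFP tumor 2, 3, 5, 8 or 9, B16-IFNA4 tumor 1 or 3, or B16-IFNA9 tumor 1, 4, 5, 9 or 10, and between the interferon-secreting types at 0.32 without B16-IFNA9 tumor 5 (edgeR adjusted p = 0.0378).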

How the data were processed

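Bulk RNA-seq of 30 whole tumors was analysed. The authors prepared stranded mRNA libraries, sequenced single-end reads of 50 bases, checked them with FastQC 0.11.3, aligned them with HISAT2 2.0.4 and deposited whole-number counts per gene, without normalization. The labels name the genome build mm10 and the study's methods mm11, and the overlap mode, strand setting and handling of reads with several alignments are not given in the sources used here. Whether exons of the longer RefSeq form of Ifi27l2a overlap those of Ifi27 was not examined.

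Coordinates, lengths and coding sequences come from GENCODE M21 (GRCm38), not from the authors' alignment. The tests were run in edgeR 4.0.16 under R 4.3.3. The filter asked for a mean count of 10 or more and left 15926 genes. TMM scaled the libraries, and all 30 tumors entered one quasi-likelihood fit by tumor type. A gene was called when its p, adjusted by Benjamini-Hochberg over these genes, was below 0.05. Log2 CPM took a prior count of 2. The fit was tested on simulated data. The study used DESeq2, here an alternative (1.42.0). Total counts ran from 14598517 to 19788383.

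The members and gene lists were chosen with earlier results of these data known. Genes are named by a rule: the family, genes within 250 kb, the 3 largest and 3 smallest ISG fold changes against B16-GFP in each comparison, every called gene of the IFI27 partner list, the 6 highest and 3 lowest correlations, and the 3 ISGs on either side of Ifi27 in level. The labels call the tumors biological replicates and name no cage, day or litter. Tumors with the same replicate number did not deviate together, so no pairing was used. No 2 tumors of a type agreed within sampling noise (chi-square per gene of at least 14.1). Alternatives were other scalings, filters, DESeq2, fits of 2 types, a replicate block and leaving out each tumor. Sequences upstream of the genes and protein sequences were not used here. Single values of some listed genes are not reported here.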

Additional observations from a re-analysis of the deposited data

Results flagged for a closer look

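Of 33 groups of 10 values searched for a single tumor far from the rest, 6 held one, where chance gives about 1 in 20 groups, or 1.65. In 2 of them the ratio of Ifi27l2a to Ifi27 counts stood apart. B16-GFP tumor 3 had a ratio of 1.92 against 0.603 to 1.13 in the other B16-GFP tumors, and B16-IFNA9 tumor 10 had one of 0.702 against 1.43 to 2.20. In B16-GFP tumor 7 the mean log2 CPM of the ISGs was 4.25, against 5.17 to 6.13 in the other B16-GFP tumors. That tumor also had the lowest leukocyte and the highest melanoma cell marker mean of its type. Asb2 was at 5.01 log2 CPM in B16-IFNA9 tumor 5 against 1.86 to 3.45 in the others, and Otub2 at 4.58 in B16-GFP tumor 2 against 3.56 to 4.09. Ppp4r4 was at -0.45 log2 CPM in B16-IFNA9 tumor 10 against 0.44 to 1.21.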

How the results depend on the processing

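The fold changes of the family and the counts of called ISGs were recomputed with DESeq2 size factors, library totals, the DESeq2 test, edgeR's filterByExpr, no filter, the 2 types compared alone, a replicate block and each tumor left out. The relations within types were recomputed with library totals and without the 2 farthest tumors, and the neighbours and partner genes with each tumor left out, a choice made after the data were seen. The count ratio was read without 2 single tumors only, and the r of the genes named for likeness without B16-GFP tumor 7 only. Over these 29 tumors r was 0.87 for Klhl30, 0.87 for Speg and 0.85 for Rasd2, so their order changed. It was 0.76 to 0.77 for Tmod1, Mgarp and Sema3b, and -0.82 to -0.79 for Rasa1, Nsmaf and Ptbp3. The fold changes of Ifi27 kept their sign under all settings that gave a value for them, and all 60 ISGs stayed called in both comparisons with B16-GFP. Left out one at a time, the tumors gave log2 fold changes of Ifi27 of -0.25 to -0.15 in B16-IFNA4 and 0.06 to 0.17 in B16-IFNA9 against B16-GFP, and 0.26 to 0.38 between the interferon-secreting types. For Ifi27l2a between B16-IFNA9 and B16-IFNA4 they gave -0.68 to -0.53, with adjusted p from 0.0137 to 0.0768 by edgeR, and 11 of 30 fits lost the call, while the other settings gave adjusted p from 0.00180 to 0.0439. Same-numbered tumors did not deviate together (correlation of their deviations -0.27 to 0.30, median -0.05, 4 of 30 pairs over 0.1). With the replicate block the log2 fold change of Ifi27l2a was 1.57 and 0.93 against B16-GFP and -0.63 between the interferon-secreting types, and no call changed.

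Library totals in place of TMM moved the relations of Ifi27 in B16-GFP tumors past the threshold by Pearson's r. It was 0.80 with the ISGs, 0.70 with Ifi27l2a, 0.75 with leukocyte markers, 0.76 with fibroblast markers and -0.81 with melanoma cell markers (permutation adjusted p from 0.00935 to 0.0404). By Spearman's rho only the ISGs passed there (permutation adjusted p = 0.0344), and the others had 0.0751 to 0.172. Library totals also lost the rho calls for Ifi27l2a in B16-GFP and leukocyte markers in B16-IFNA4 tumors (permutation adjusted p = 0.172 and 0.0702). The rho for Ifi27l2a in B16-IFNA4 tumors was then called (permutation adjusted p = 0.0344). Without the 2 farthest tumors the called relations became 0.70 (Ifi27l2a) and -0.63 (leukocytes) in B16-IFNA4, and -0.60 (leukocytes) and 0.75 (melanoma cells) in B16-IFNA9, none past the threshold, with fewer tumors. Library totals also moved the share of higher genes among those called in B16-IFNA9 against B16-GFP from 48.2% to 58.3%. The filters and fits above the count minimum gave no fitted value for Ifi27l2b, which was tested only without a filter. The union of exons was chosen after the data were seen. Depth limits Ifi27l2b alone among the 3 genes, since 0 to 24 counts per tumor stand behind it.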

Other observations

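The sign of the correlation with the listed ISGs changed between tumor types for both Ifi27 and Ifi27l2a. In B16-GFP tumors 58 of 60 ISGs had an r above 0 with Ifi27 and 56 with Ifi27l2a, at medians of 0.49 and 0.45. In B16-IFNA4 tumors 5 and 10 did, at medians of -0.62 and -0.50, and in B16-IFNA9 tumors 13 and 11 did, at medians of -0.42 and -0.32. Over all genes tested the median r was between -0.01 and 0.06 in each case. These are correlations over 10 tumors of a type that share scaling and cell makeup, the ISGs are not independent of each other, and the change of sign was not tested.

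A pair of single ISGs, picked after their values were seen, had the highest r with a member in some of the groups. Bst2, a membrane protein that tethers viruses, had the highest r with Ifi27 of the 60 in B16-IFNA4 tumors (0.61) and in B16-IFNA9 tumors (0.66). Ifitm3, the ISG with the smallest fold change in B16-IFNA4, had the highest r with Ifi27l2a over all 30 tumors after subtraction of the type means (0.89), and 0.98 in B16-GFP tumors.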
